A study of Mus musculus with 8 samples.

Results

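Sox5, Sox6 and Sox9 are the 3 transcription factor genes that together drive cartilage formation, and they were examined here for sites bound by GATA2. The genes were chosen by name, with earlier results of these data known, and are 3 of 21627 protein-coding genes in the gene table. GATA2 peaks were counted in each gene body and within 10 kb, 100 kb and 500 kb of it. Within 500 kb of the 3 genes lay 4 of the 2445 peaks of 3T3-L1 and 7 of the 1557 peaks of C3H10T1/2. GATA2 was profiled by chromatin immunoprecipitation and sequencing in 2 mouse cell lines: 3T3-L1, a fibroblast line used as a model of fat cell precursors, and C3H10T1/2, an embryonic fibroblast line that can also be turned into cartilage. The labels give 2 libraries made with a GATA2 antibody and 2 input libraries without antibody for each line, and no genotype or treatment beyond the line. DNA of several immunoprecipitations was pooled for a library, and the deposited data analysed here are 1 list of peak positions per line. A list has no replicate, no peak height and no known read depth, so a site missing from a list may lie below its unknown threshold. Cell identity cannot be checked from peak positions.

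SOX9, a SoxE protein, binds DNA through the HMG box that defines the Sox family, and it is needed from the first condensation of mesenchymal cells into cartilage. SOX5 and SOX6 are SoxD proteins that lack a classical activation domain of their own, pair through coiled coils, and strengthen the action of SOX9 at cartilage enhancers such as those of Col2a1 and Acan. Sox9 is a short gene in a long stretch poor in other genes, where enhancers far from the gene control it, while Sox5 and Sox6 are among the longest genes. GATA2 is a zinc finger factor known for holding blood and fat precursors in an immature state.

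The 3 genes differed in where their GATA2 sites lay. Sox6 had 5 sites in C3H10T1/2 within 500 kb, 2 of them inside the gene, and 1 in 3T3-L1. Sox9 had 2 and 1 sites in that window, none in the gene. Sox5 had 2 sites in 3T3-L1 and 0 in C3H10T1/2. The nearest site to any gene boundary of the 3 lay 63.0 kb away. Positions are given on mm10, counted from 1, and a peak belongs to a window when its centre lies in it. The gene table holds no exons, so whether a site is exonic or intronic is not stated.

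**Figure D1:**
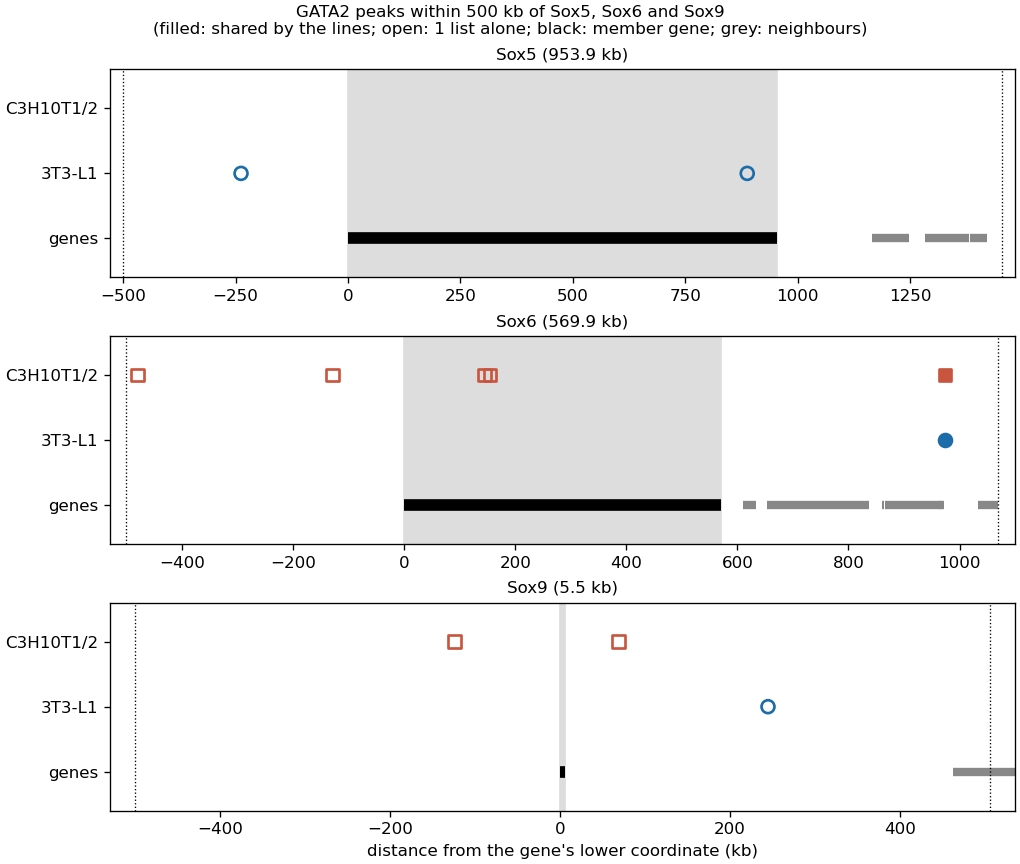
Peak centres within 500 kb of Sox5, Sox6 and Sox9, in kb from each gene's lower coordinate (x axis), with 1 row for each peak list and 1 for genes (black: Sox gene; grey: neighbouring protein-coding genes; dotted lines: ends of the window). Filled symbols are sites shared by the lines: there is 1, at 404 kb above Sox6, and every other symbol is open, present in 1 list alone.

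Sox9, the gene that starts the cartilage program, occupies 5548 bp of chromosome 11 (112782210 to 112787757). It had no peak in its body or within 10 kb in either line. All protein-coding genes had one in the body in 2.78% of cases in 3T3-L1 and 2.59% in C3H10T1/2, and within 10 kb in 3.96% and 3.64%. The nearest C3H10T1/2 site lay 63.0 kb above the gene, at 112850723 to 112850864, and was 142 bp wide. This placed Sox9 among the 12.1% of genes with a C3H10T1/2 peak within 100 kb, while in 3T3-L1, where 13.9% of genes had one, Sox9 did not. The other C3H10T1/2 site in the 500 kb window lay 124 kb below the gene, at 112657714 to 112657937, and was 224 bp wide. The long noncoding RNA gene BC006965 (112663927 to 112711356) lies between this site and Sox9. The 3T3-L1 site lay 239 kb above Sox9, at 113026953 to 113027076. It lay nearer to Slc39a11, a protein-coding gene 218 kb from it. It was 176 kb from the nearest C3H10T1/2 site, so the lines had no site in common in this window.

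Sox9 with 2 sites in C3H10T1/2 stood with the 16.2% of genes that had at least as many within 500 kb, and 39.2% of genes had at least 1. With 1 site in 3T3-L1 it stood with the 45.3% that had any. The window spans 1.01 Mb, for which the mean density of each list gives 0.934 peaks in 3T3-L1 and 0.595 in C3H10T1/2. In 3T3-L1 the count was therefore about that of the list, and in C3H10T1/2 it was above it. All mean densities given here include dense blocks (at least 8 peaks with gaps of at most 20000 bp). Such blocks hold 454 of the 2445 peaks of 3T3-L1 and 20 of the 1557 of C3H10T1/2. The mean density is therefore higher than that outside the blocks, mainly in 3T3-L1. Within 1000 kb, Sox9 had 3 sites in 3T3-L1, where 65.9% of genes had any, and 4 in C3H10T1/2, where 59% had any. At least as many were found at 21.2% and 9.27% of genes.

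Further below Sox9 the sites were denser. The region from Kcnj2, a potassium channel gene (111066164 to 111076825), to Slc39a11, a zinc transporter gene whose lower coordinate is 113244851, was examined after its peaks had been seen. It is 2168 kb long and holds Sox9, the short gene Gm11677 (111721937 to 111726301) and 14 long noncoding RNA genes. The C3H10T1/2 list had 9 peaks there, against 1.28 at its mean density, and the 3T3-L1 list had 5 against 2.01. Most lay between 700 kb and 1200 kb below Sox9, with 7 of C3H10T1/2 and 4 of 3T3-L1. All of these far sites lie nearer to Gm11677 than to Sox9.

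Of these far sites 2 were shared. The first lay 1034 kb below Sox9, with the 3T3-L1 peak at 111747798 to 111748099 and the C3H10T1/2 peak at 111747687 to 111748029. The other lay 1019 kb below Sox9, at 111763131 to 111763323 and 111763093 to 111763450. In C3H10T1/2 these peaks were 343 bp and 358 bp wide, at least as wide as 94.3% and 95.5% of that list. In 3T3-L1 they were 302 bp and 193 bp wide, at least as wide as 93.9% and 73.0% of it. Their nearest annotated gene start was that of Gm11677, 21.6 kb and 36.9 kb from the 3T3-L1 centres, so the distance to Sox9 is not the shortest distance to a gene.

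The other far sites of C3H10T1/2 lay 1183 kb, 1110 kb, 1094 kb, 906 kb and 838 kb below Sox9. The 3 farthest were 249 bp, 297 bp and 307 bp wide, and the 2 nearer ones were 137 bp and 143 bp. The other far sites of 3T3-L1 lay 824 kb and 711 kb below Sox9. The closest pair of unshared sites, at 838 kb in C3H10T1/2 and 824 kb in 3T3-L1, had centres 13.4 kb apart. Thus the wide peaks of C3H10T1/2 were at the far end of the cluster, toward Kcnj2, and 3T3-L1 had no peak beyond 1034 kb.

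**Figure D2:**
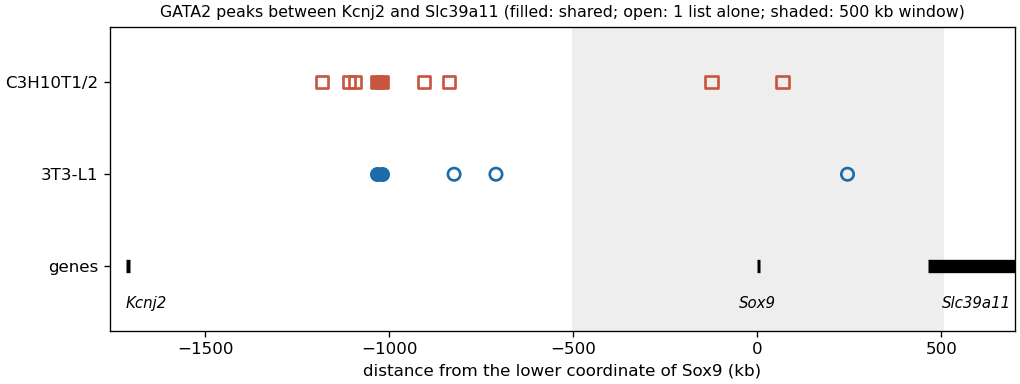
Peak centres between Kcnj2 and Slc39a11, in kb from the lower coordinate of Sox9 (x axis), with 1 row per peak list and 1 row for the genes Kcnj2, Sox9 and Slc39a11 (other genes of the region are not drawn). Shading marks the 500 kb window. The 2 filled sites of each row, shared by the lines, lie 1034 kb and 1019 kb below Sox9, and 9 C3H10T1/2 peaks stand against 5 of 3T3-L1 in the whole region.

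The stretch without protein-coding genes between Gm11677 and Sox9 alone was 1056 kb long and held 5 peaks of C3H10T1/2 and 4 of 3T3-L1. The genome held 281 such stretches of at least 1000 kb. Counting the one below Sox9 itself, 8 had at least as many C3H10T1/2 peaks and 17 at least as many 3T3-L1 peaks. The median was 0 in both lists. This ranking is a description, since the stretch was singled out with its peaks known. Above Sox9 the stretch to Slc39a11 was 457 kb long and held 1 peak of each list.

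Sox6 spans 570 kb of chromosome 7 (115470872 to 116040776), with 171 longer genes in the table. Its product shares the SoxD coiled coil with SOX5 and, besides cartilage, is known from muscle fibre type and the silencing of embryonic globin genes. The C3H10T1/2 list had 2 peaks inside the gene, at 115615742 to 115615925 and 115625313 to 115625498, with centres 9.57 kb apart. They were 184 bp and 186 bp wide, close to the list's median of 184 bp. RefSeq places the gene on the minus strand, so transcription runs from the higher to the lower coordinate. In the order given, the 2 sites lay 74.6% and 72.9% along the gene in that direction. They were 186 kb and 176 kb from the nearest of the 6 listed Sox6 starts. Neither overlapped a 3T3-L1 peak, and the nearest peak of that list was 819 kb away from the closer site.

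In the whole C3H10T1/2 list, 16.8% of peaks had another peak within 10 kb, as the pair in Sox6 did. At least 2 C3H10T1/2 peaks in the body were found in 84 genes, or 0.388% of all. Long genes offer more room: of the 172 genes at least as long as Sox6, 22.7% had at least 1 C3H10T1/2 peak in the body, and 19 (11.0%) had at least 2. In 3T3-L1, 25% of these long genes had at least 1 peak in the body and Sox6 had none.

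Outside the gene, C3H10T1/2 had a peak 130 kb below Sox6, at 115341057 to 115341260 (204 bp wide), and another 479 kb below it, at 114991437 to 114991585 (149 bp wide). The first has Sox6 as its nearest protein-coding gene. The other lies nearer to Insc, an adaptor gene of cell polarity, at 141 kb. The stretch of 620 kb between Insc and Sox6 held these 2 C3H10T1/2 peaks and no 3T3-L1 peak.

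The site shared by both lines lay 404 kb above Sox6, with the 3T3-L1 peak at 116444631 to 116444814 and the C3H10T1/2 peak at 116444621 to 116444805. The peaks overlapped by 175 bp, which was 95.1% of the 3T3-L1 peak and 94.6% of the C3H10T1/2 peak. It lay 1.26 kb from the start of Pik3c2a, which encodes a class II phosphoinositide 3-kinase, and this gene, not Sox6, is its nearest gene. It was the only 3T3-L1 site within 500 kb of Sox6. With this site and the one toward Insc left to their nearest genes, Sox6 kept 3 sites in C3H10T1/2 and 0 in 3T3-L1.

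With 5 C3H10T1/2 peaks within 500 kb, Sox6 stood with the 298 genes (1.38%) that had at least as many, among them 6 of the 172 long genes (3.49%). The window of 1.57 Mb would hold 0.929 peaks at the mean density of the list. In 3T3-L1 the same window had 1 peak against 1.46, and 45.3% of genes had any. As a share of the list, the Sox6 window held 0.409 of every 1000 peaks in 3T3-L1 (95% exact Clopper-Pearson interval 0.0104 to 2.28) and 3.21 of every 1000 in C3H10T1/2 (1.04 to 7.48). The difference had p = 0.036 in a two-sided Fisher's exact test and did not pass after Benjamini-Hochberg adjustment over the 3 genes (adjusted p = 0.108). Over the other windows and peak sets the unadjusted Fisher's exact p ran from 0.063 to 0.151, and it was 0.092 without dense blocks. The adjusted values there ran from 0.188 to 0.454. These tests and intervals compare 2 lists and cover counting error over peaks, not the spread between cultures.

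**Figure D3:**
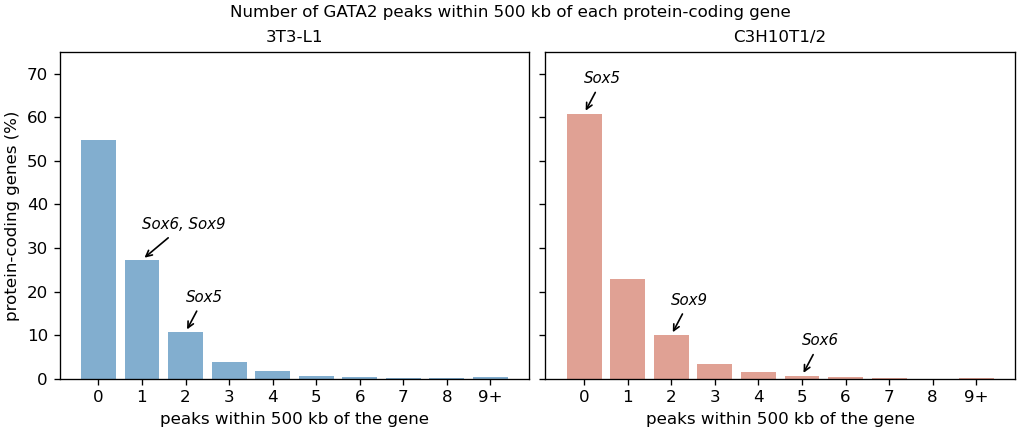
Share of the 21627 protein-coding genes (y axis, %) by the number of peaks within 500 kb (x axis, genes with 9 or more in the last bar), for each peak list, with arrows at the bars that hold Sox5, Sox6 and Sox9. Most genes have 0 peaks in either list, Sox6 stands at 5 in C3H10T1/2, a number held by 0.652% of genes, and at 1 in 3T3-L1.

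No peak of either list lay within 100 kb of a listed start of Sox5 or Sox6, although letters of the GATA motif occur at 1 of these starts. The only listed start of Sox5 (143947106) lies inside the gene, which begins on the minus strand at its higher coordinate, 144782287. No start is listed at that end. The 3T3-L1 peak in the Sox5 body lay 769 kb from the listed start but 65.7 kb from the higher coordinate. The starts used were 6 of Sox6 and 1 of Sox5 (RefSeq, GRCm38.p6), which need not be all starts of these genes. In the 250 bases before each, both strands were searched for GATA with A or T before it and A or G after it. Each matched position was counted once. Of the 7 stretches 1 held a match, and 26.5% of 32851 such stretches in the table did. The core letters bound by Sox factors, ACAAT, were found in 4 of the 7 and in 27.7% of all. The stretch with the match lies before the Sox6 start at 115846140, 221 kb from the nearest C3H10T1/2 peak and 599 kb from the nearest 3T3-L1 peak. It is printed 5′ to 3′ with the GATA letters in capitals, beside the Sox5 stretch, which has none and whose nearest peaks were 357 kb (3T3-L1) and 2052 kb (C3H10T1/2) from the start.
Sox6, chr7:115846141-115846390, minus strand: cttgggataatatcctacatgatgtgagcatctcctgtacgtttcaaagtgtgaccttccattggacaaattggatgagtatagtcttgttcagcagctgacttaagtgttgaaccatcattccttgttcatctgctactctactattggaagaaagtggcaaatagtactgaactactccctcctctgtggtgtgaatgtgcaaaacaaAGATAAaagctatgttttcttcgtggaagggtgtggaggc
Sox5, chr6:143947107-143947356, minus strand: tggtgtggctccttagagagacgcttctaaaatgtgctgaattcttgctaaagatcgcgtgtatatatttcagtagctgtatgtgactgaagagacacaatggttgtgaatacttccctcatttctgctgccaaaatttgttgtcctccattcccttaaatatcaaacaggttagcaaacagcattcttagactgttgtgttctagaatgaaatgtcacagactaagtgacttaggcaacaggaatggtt
A match of letters is not a binding site, and the sequences under the peaks themselves were not analysed here.

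Sox5, the partner of Sox6, is longer still, at 954 kb of chromosome 6 (143828425 to 144782287), with 63 longer genes in the table. It had 1 peak of 3T3-L1 in its body, at 144716530 to 144716637 (108 bp wide), 65.7 kb below its higher coordinate and 6.89% along the gene in the direction of transcription. The nearest annotated start was that of the antisense gene Sox5os3, at 43.7 kb. The other 3T3-L1 site lay 238 kb below the gene, at 143590339 to 143590441 (103 bp wide), in the stretch of 620 kb that separates Sox5 from the ethanolamine kinase gene Etnk1. Sox5 was the nearest protein-coding gene of both sites. Both were narrow, since 72.4% or more of the 3T3-L1 peaks were wider.

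The C3H10T1/2 list had no peak near Sox5. Its nearest peak lay 1216 kb above the gene, at a site the lines share, and the next one on the other side lay 6930 kb below. At the mean density of the list the 500 kb window of 1.95 Mb would hold 1.16 peaks, and 60.8% of all genes had none in theirs. Of the 172 genes at least as long as Sox6, whose windows are also longer than most, 61.0% had none. The 3T3-L1 count of 2 compares with 1.82 at that list's density, and 18.0% of all genes and 26.2% of the long genes had at least as many. The lists held 0.818 and 0 of every 1000 peaks in this window (intervals 0.0991 to 2.95 and 0 to 2.37; two-sided Fisher's exact p = 0.524, adjusted p = 0.564). For Sox9 the shares were 0.409 and 1.28 of every 1000 (0.0104 to 2.28 and 0.156 to 4.63; exact p = 0.564, adjusted p = 0.564). For none of the 3 genes did the difference between the lists pass after adjustment, and the wide intervals do not show that the lists were alike there.

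Taking the 3 genes together, 1 of the 7 C3H10T1/2 sites was shared (14.3%, exact interval 0.361 to 57.9), beside 34.7% of the whole list. Of the 4 sites in 3T3-L1, 1 was shared (25%, 0.631 to 80.6), beside 22.4%. Both intervals contain the value of the whole list. The C3H10T1/2 sites were 142 bp to 224 bp wide (median 185), and 5 of 7 were at least as wide as the list's median of 184 bp. The 3T3-L1 sites were 103 bp to 184 bp wide (median 116), and only the shared site near Pik3c2a reached that list's median of 144 bp. Width and distance from the gene showed no common order in so few sites: the C3H10T1/2 site nearest to a gene boundary was the narrowest of its list here, and the farthest was the next narrowest.

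**Figure D4:**
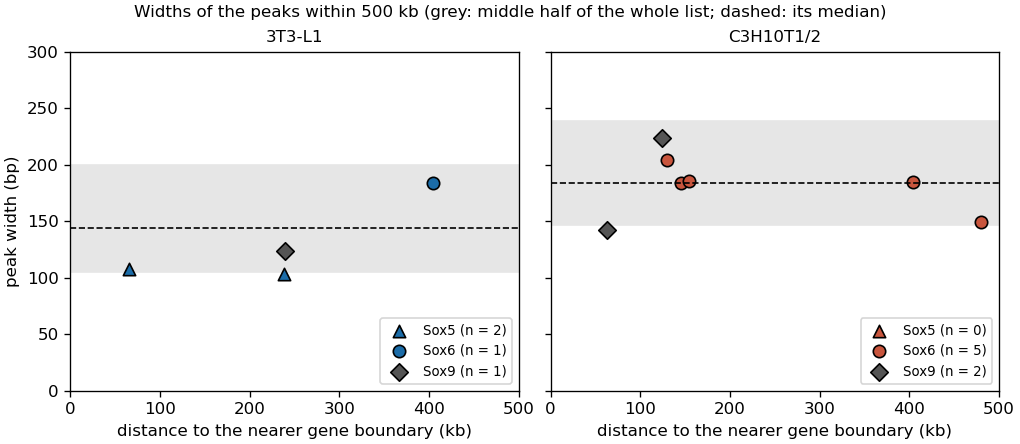
Width in bp (y axis) of each peak within 500 kb of Sox5, Sox6 or Sox9 against its distance to the nearer boundary of that gene in kb (x axis), for each list. Grey bands span the lower to the upper quartile of the whole list (105 to 200 bp in 3T3-L1, 147 to 239 bp in C3H10T1/2) and dashed lines mark its median. The 3 narrow 3T3-L1 peaks near Sox5 and Sox9 lie below the dashed line, and 5 of 7 C3H10T1/2 peaks lie on or above it.

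The neighbours were counted in the same way. Protein-coding genes within 500 kb numbered 5 for Sox5, 6 for Sox6 and 1 for Sox9, all on the side of the higher coordinate. None of the 12 had a peak in its body in either line, as 2.78% and 2.59% of all genes did. A peak within 10 kb was found for 2 of 12 in each line (16.7%, beside 3.96% and 3.64%), and within 100 kb it was 3 of 12 (25%, beside 13.9% and 12.1%). Within 500 kb it was 11 in 3T3-L1 (91.7%) and 7 in C3H10T1/2 (58.3%), beside 45.3% and 39.2%. These windows overlap those of the Sox genes, and every peak counted in them was also counted for a Sox gene. Each of the 11 had 1 peak of 3T3-L1, often the same one as other neighbours, so these shares are not of independent genes. The 3 genes within 100 kb were neighbours of Sox6, Pik3c2a, Gm40453 and Nucb2, and all lay near the 1 shared site. The nearest neighbour above Sox5 was Bcat1, an amino acid transaminase gene at 212 kb, and none of its 5 neighbours had a peak within 100 kb in either list. Slc39a11, the neighbour of Sox9, had none within 100 kb either.

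Besides Sox5 in 3T3-L1 and Sox6 in C3H10T1/2, no Sox gene analysed had a peak in the body or within 10 kb. With 3.96% of all genes in 3T3-L1 and 3.64% in C3H10T1/2 having a peak within 10 kb, a count of 0 among the other 16 Sox genes on the chromosomes covered does not set them apart. Within 100 kb it was 1 of 16 in 3T3-L1 (6.25%, beside 13.9%) and 2 of 16 in C3H10T1/2 (12.5%, beside 12.1%). These were Sox30 in both lines, at 47.9 kb in 3T3-L1 and 55.5 kb in C3H10T1/2, and Sox7 in C3H10T1/2, at 32.5 kb. Within 500 kb, 6 of the 16 (37.5%) had a peak in each list, near the share of all genes. The 16 are shorter than Sox5 and Sox6, from 1.69 kb to 42.2 kb with a median of 4.61 kb, so their bodies and windows cover less sequence.

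The lists of cartilage matrix genes and of regulators of chondrocytes had some members near GATA2 sites. Both lists were chosen with earlier results of these data known, and neither was tested. Of 22 cartilage matrix genes, 4 had a 3T3-L1 peak within 100 kb (18.2%) and 5 a C3H10T1/2 peak (22.7%), beside 13.9% and 12.1% of all genes. Within 500 kb it was 14 in 3T3-L1 (63.6%) and 13 in C3H10T1/2 (59.1%), beside 45.3% and 39.2%. Their median count within 100 kb was 0 in both lists, as for all genes, and within 500 kb it was 1 against 0. Col2a1 and Acan, the best known targets of SOX9, had none within 100 kb, and their nearest sites, each shared by the lines, lay 161 kb and 203 kb away. Col9a2 and Col10a1 had a shared site at 52.9 kb and 83.2 kb. Col11a1 held a C3H10T1/2 peak (chromosome 3, 114053488 to 114053620), and Epyc, a small proteoglycan gene, had a 3T3-L1 peak in its body. Matn4 in 3T3-L1 (17.7 kb) and Comp and Scrg1 in C3H10T1/2 (65.9 kb and 71.9 kb) were the others.

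Of 22 regulators of chondrocytes, 5 had a peak within 100 kb in each line (22.7%), beside 13.9% and 12.1% of all genes, with a median count of 0. In the body it was 3 in 3T3-L1 (13.6%) and 4 in C3H10T1/2 (18.2%), beside 2.78% and 2.59%. Within 500 kb it was 13 (59.1%) and 12 (54.5%), beside 45.3% and 39.2%, with a median count of 1 against 0 for all genes. The regulators with a peak in the body are long, from 187 kb (Arid5b) to 759 kb (Zbtb20). Of the 172 genes at least as long as Sox6, a length only Zbtb20 reaches here, 25% and 22.7% had one. The part of gene length in the body shares was not tested. The list was chosen with earlier results of these data known, and no test was made of it. In both lists the genes with a peak within 100 kb included Runx2, Trps1 and Arid5b. Hdac4, a repressor of chondrocyte hypertrophy, and Creb5 were on the 3T3-L1 side. On the C3H10T1/2 side were Mef2c, with a peak at 35.1 kb, and Zbtb20, a long gene of 759 kb with 2 peaks in its body like Sox6.

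The genes most like each Sox gene were found over 8 values, the counts in the body and within 10 kb, 100 kb and 500 kb in each list. Fggy, a carbohydrate kinase gene, was the only gene with the same 8 counts as Sox6. Slc30a4 came next, at a Euclidean distance of 1.41, and then Tsc22d1, tied with Crabp1 at 1.73. For Sox5, 26 genes had the same counts, and those closest to it in length were Ppargc1a, Ank3 and Camk1d. For Sox9, 112 genes had the same counts, and those closest in length were Wfdc21, Tmem274 and Gm33099. These likenesses are in counts alone, and many genes share the small counts of Sox5 and Sox9.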

How the data were processed

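ChIP-seq of GATA2 and input DNA was done in 3T3-L1 and C3H10T1/2 cells, with 2 libraries per group in 4 groups. The authors deposited 1 list of peak positions (in bp) per line, with no score. The submitters' processing notes name, without roles or settings, the build mm10 and MACS2, bedtools, SAMtools, Bowtie2 and CASAVA 1.8. How libraries and input were combined, the peak threshold and any peaks removed are not given in the sources used here, and each of these sets how many peaks a list holds.

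Peak centres were assigned to RefSeq protein-coding genes of GRCm38.p6 on chromosomes 1 to 19 and X (Python 3.11.15, pandas 2.3.3). Sry was not analysed here. Mean density is a list's peak number over 2631 Mb, the summed position of the last annotated gene per chromosome. Peaks overlapping by at least 1 bp were shared. Lists were compared with Fisher's exact test (scipy 1.17.1), adjusted over the 3 genes and called at 0.05. Interval assignment was tested on simulated peaks.

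Genes were named by rule: the 3 Sox genes, neighbours at their sites, listed genes with a peak within 100 kb (Sox family: within 10 kb), and the 3 genes most like each. Sox7, Sox30, Col2a1, Acan and Crabp1 were added after their values were seen. The genes and lists were chosen with earlier results of these data known. Other settings were a peak's overlap with the window, sharing by 50% of both peaks or by centres within 1 kb, wider peaks, no dense blocks (at least 8 peaks with gaps of at most 20000 bp), windows of 100 kb and 1000 kb, windows from gene starts, and nearest genes.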

Additional observations from a re-analysis of the deposited data

How the results depend on the processing

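Counts within 500 kb did not change when any overlap of a peak with the window was enough, when dense blocks were left out, or, for shared sites, under the other definitions of sharing. With peaks of at least the median width alone, Sox5 and Sox9 had 0 sites in 3T3-L1, Sox9 had 1 in C3H10T1/2, and Sox6 kept 1 and 4. With each peak left to its nearest gene, Sox6 had 0 sites in 3T3-L1 and 3 in C3H10T1/2, and Sox9 had 0 in 3T3-L1. With the window measured from the outermost listed start, Sox5 had 1 site in 3T3-L1 and Sox6 had 3 in C3H10T1/2. The listed Sox5 start lies inside the gene, and the site left out was the one in the gene body. The window from gene starts was not run for Sox9. The interval from Kcnj2 to Slc39a11, chosen after seeing the data, held 5 sites in 3T3-L1 and 9 in C3H10T1/2. Most of these lie nearer to Gm11677 than to Sox9. No Fisher's exact test between the lists passed after adjustment under any setting run. Within 1000 kb, counts in 3T3-L1 and C3H10T1/2 were 2 and 0 for Sox5, 2 and 6 for Sox6 and 3 and 4 for Sox9. No paired analysis was possible because each line has 1 list of peaks and no values per library, and for the same reason no replicate could be left out. Depth is unknown, so sites below the authors' threshold cannot be counted.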
